A study of Mus musculus with 48 samples.

Results

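CTCF is a zinc-finger protein that binds DNA at many places along the chromosomes and stops cohesin, the ring-shaped complex that extrudes chromatin loops. A CTCF site that stops cohesin therefore usually carries a peak of the cohesin subunit SMC3 as well. The residue changed in the mutant Q418R lies in the sixth zinc finger of CTCF. H455R replaces a histidine of the seventh finger that holds the zinc ion. The sites described here are those where wild-type (WT) CTCF had a peak, Q418R and H455R had none, and the 7 other mutants studied all had one.

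The members were chosen by the presence or absence of peaks in lists that the authors deposited, as follows. WT peaks of a FLAG antibody, which pulls down the transgene protein, were kept if they overlapped a peak of a CTCF antibody in the same cells by at least 1 bp. They also had to overlap a FLAG peak in R339Q, R342C, S354F, K365T, R377C, R377H and R448Q, and no FLAG peak in Q418R or H455R. Of 15392 WT FLAG peaks, 14023 had a CTCF antibody peak, and 512 met the whole rule. These 512 sites were not lost in Q418R alone, since H455R lacked them too. WT sites without a FLAG peak in Q418R and with one in all of the other 8 mutants, H455R included, numbered 23. Lacking a peak was common in H455R, where 90.7% of the 14023 sites had no FLAG peak, against 37.8% in Q418R. Both percentages come from the lists that chose the members, so nothing is read from them.

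All groups were mouse embryonic stem cells derived from the E14Tg2a line of strain 129/Ola, in which an auxin-inducible degron serves to remove endogenous CTCF. A doxycycline-inducible transgene supplied CTCF of the WT form or of 1 of 9 mutant forms, which are Q418R, H455R and the 7 named above. The labels give no number of clones per line. The 10 FLAG groups, the 10 SMC3 groups and 1 CTCF antibody group (WT) were treated with 500 µM indole-3-acetic acid (IAA), an auxin, and 1 µg/ml doxycycline for 2 days. The other CTCF antibody group was untreated WT. Libraries were made by ChIPmentation, in which a transposase tags the chromatin during immunoprecipitation, and each deposited peak list pools the 2 replicates of its group by its title, although the peak names in most FLAG lists carry other replicate numbers. There is thus 1 value per genotype and antibody, no spread between replicates, and no way to tell cell clone from mutation. Intervals in parentheses are 95% Wilson intervals and cover counting error over sites only. Depth per library is unknown, and a site without a peak is one where none was listed, which need not be one where nothing was bound.

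Several lists stood apart, and the results that rest on them are given beside the values concerned. The H455R FLAG list held 3855 peaks, whereas the Q418R FLAG list held 30332, nearly the longest of the 10, after R377C with 30462. The reverse held for SMC3, where Q418R had the shortest list, with 42030 peaks against 71962 to 153647 in the 9 other genotypes. The Q418R FLAG list, before identical intervals were merged, also had 42030 lines, but with other intervals and values. The peak names of the Q418R SMC3 list carry the tag b3, which no other SMC3 list carries, so the tag and the mutation cannot be told apart. The other SMC3 lists were not alike either. R339Q carries b2, S354F and R377C carry b1 and b2, and WT and the remaining mutants carry b1 only. Chromosome 6 held 3.45% of the FLAG peaks of Q418R against 5.03% to 7.37% in the other genotypes, and 3.04% of its SMC3 peaks against 7.33% to 12.2%. Chromosome 8 held 30.2% of the FLAG peaks of H455R, against 5.50% in WT. Mutants that kept FLAG at the members also had such shares. Chromosome 11 held 14.7% of the FLAG peaks of R377H and 11.7% of those of K365T, against 7.11% in WT. Chromosome 1 held 12.2% in R448Q, 10.4% in K365T and 9.49% in Q418R, against 6.13% in WT.

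Sequence was at hand only for windows from 250 bases before to 50 bases after annotated start sites (RefSeq, GRCm38.p6, the assembly that mm10 names). Of the 498 members on the chromosomes with such windows, 24 overlapped one (4.82%; 3.26 to 7.07). Within the stretch shared by peak and window, 12 of the 24 held AGGNGGC on either strand (50.0%; 31.4 to 68.6), the G-rich heart of the letters that CTCF is known to bind. The share was 49.7% at the 171 sites in such windows that lacked FLAG in H455R only and 66.7% at the 90 kept by all 9 mutants. The looser letters AGNNGGC, which contain the stricter ones, were held by 83.3% of the 24 members. Of all 32851 windows, 29.4% held the stricter and 59.8% the looser letters, although these windows were searched over their whole length of 300 bases and the members over a median of 253. A match is a description of the letters and does not show where CTCF sat. The 7 members whose match lay within 30 bp of the middle of the WT FLAG peak are shown, since they place the letters near the middle of a measured peak. AGGNGGC is in capitals, with 12 bases before and 10 after it, read 5′ to 3′ on the strand of the match.
Gclm: gctctggccggcAGGGGGCgcacgtccgc
Csk: cgcgcctgcgcgAGGGGGCctgccgggcg
Ndufaf4: ctcccggccaccAGGGGGCgacgagcgcg
Man2b2: attcctgccgacAGGCGGCgccgcgggtc
Mrpl17: gagaaacccggcAGGGGGCgccgagatcc
Flt3l: cttgttaccactAGGTGGCgtgtcccgcc
Rubcnl: ctcagctcctctAGGTGGCgcacggtgct

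The matches lay at chr3:122245482-122245488 (plus strand) for Gclm, a subunit of the enzyme that starts glutathione synthesis, and at chr9:57645659-57645665 (plus) for Csk, the kinase that restrains Src. That of Ndufaf4, an assembly factor of respiratory complex I, lay at chr4:24898032-24898038 (plus). Man2b2, an alpha-mannosidase gene, had it at chr5:36830651-36830657 (minus) and Mrpl17, of the mitochondrial ribosome, at chr7:105811257-105811263 (minus). Flt3l, the ligand of the receptor FLT3, had it at chr7:45136496-45136502 (minus) and Rubcnl, an autophagy gene, at chr14:75015961-75015967 (minus). For comparison, the 4 strongest WT sites with such a match that kept FLAG in Q418R and lacked it only in H455R read as follows.
Brd7: cctggcggccggAGGCGGCgctgcagcct
Sh3gl1: accaacgagatgAGGGGGCgcctagagag
Vps18: catgttggcgctAGGAGGCagcccgggat
E130309D02Rik: ggcttcaccgccAGGGGGCgcccacgaga

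The letters around the match varied among the members. The third base before the match was G in 8 of 12 members (66.7%; 39.1 to 86.2), in 27 of 84 sites that lacked FLAG in H455R only (32.1%; 23.1 to 42.7) and in 31 of 59 sites kept by all 9 mutants (52.5%; 40.0 to 64.7). The sixth base before it was T in 5 of 12 members, 10 of 84 and 5 of 59, respectively. Some of these matches lay far from the peak middle. At matches within 30 bp of it, the third base was G in 4 of 7 members, 12 of 37 and 12 of 22 sites, respectively. The sixth was T in 2 of 7, 4 of 37 and 0 of 22. These 2 positions were picked after the counts at all positions were seen, the intervals of the members overlap those of at least 1 comparison set, and no test was made. For the Ndufaf4 site, the strongest of the 7 in WT, the whole stretch of the start-site window under the peak, chr4:24897865-24898132 on the plus strand, is given to show the setting of the core.
Ndufaf4 stretch: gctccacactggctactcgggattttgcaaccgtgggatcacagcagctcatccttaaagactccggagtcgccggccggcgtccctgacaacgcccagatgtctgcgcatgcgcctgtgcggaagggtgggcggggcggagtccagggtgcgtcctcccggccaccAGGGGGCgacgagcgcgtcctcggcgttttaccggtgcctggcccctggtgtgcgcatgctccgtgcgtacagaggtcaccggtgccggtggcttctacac

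At 5 of these 7 sites Q418R had no SMC3 peak, and at the other 2, Flt3l and Rubcnl, it had one. Of the 12 members holding AGGNGGC, 8 had none in Q418R. Among all 457 members with a WT SMC3 peak, 156 (34.1%) had none in Q418R, so most kept it. The 7 were picked by the place of the match, and no test was made of this count. Peak values were compared only within a list, as percentiles of that list, where the strongest peak is near 100. Lists of different length put the same peak at different percentiles, so a lower percentile in another genotype is not a change in signal. The Ndufaf4 site stood at percentile 94.8 of the WT FLAG list and 89.7 of the WT SMC3 list, and SMC3 was present in every mutant but Q418R. Csk and Man2b2 also lacked SMC3 in Q418R only, from WT SMC3 percentiles of 93.0 and 84.5. Mrpl17 lacked it in Q418R and R339Q. Gclm lacked it in 5 mutants (R339Q, R342C, K365T, Q418R and H455R), and a Q418R FLAG peak lay 0.444 kb away. Flt3l held SMC3 in all 9 mutants, at percentile 95.7 in WT and 85.5 in Q418R, and Rubcnl did so too, at 96.9 and 95.3.

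In WT, the members stood mostly in the middle and upper part of the FLAG list and high in the CTCF antibody lists. The antibody lists are far longer, with 116973 (treated) and 175815 (untreated) peaks against 15392, so the 2 kinds of percentile are not compared. The members' WT FLAG percentile had a median of 64.9, with the middle of the distribution from 44.4 to 82.2 and extremes of 1.52 and 99.3. The 3822 sites that differ from the members only in having a Q418R FLAG peak, called H455R-only sites from here on, had a median of 74.3. The 773 sites kept by all 9 mutants had a median of 84.5. The members' peaks were 98 to 1064 bp wide with a median of 313 bp, and 118 had more than 1 summit. All 512 also overlapped a CTCF antibody peak in untreated WT cells, with endogenous CTCF, at a median percentile of 96.0 and a lowest one of 81.6. The untreated medians were 96.4 at the H455R-only sites and 97.0 at the sites kept by all 9 mutants. In the treated list the medians were 95.5 at the members, 96.7 and 97.9, respectively. By antibody as by FLAG, the members thus stood below both sets. The untreated CTCF antibody peaks are wide, with a median of 2560.5 bp at the members, so an overlap with them is easily met.

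The 7 mutants that kept a FLAG peak did not hold it equally high in their lists. The median percentile of the members was 48.3 in K365T, the lowest, and 83.6 in R377C, the highest. R377H (63.2) and R448Q (65.01) stood close to WT. R339Q had 71.5, R342C 72.8 and S354F 80.3. In K365T, 24.2% of the members were below percentile 25 of the list, whereas in R377C only 0.195% were. The lists differ in length, from 13151 peaks in K365T to 30462 in R377C, so these percentiles give no order of binding between mutants.

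**Figure D1:**
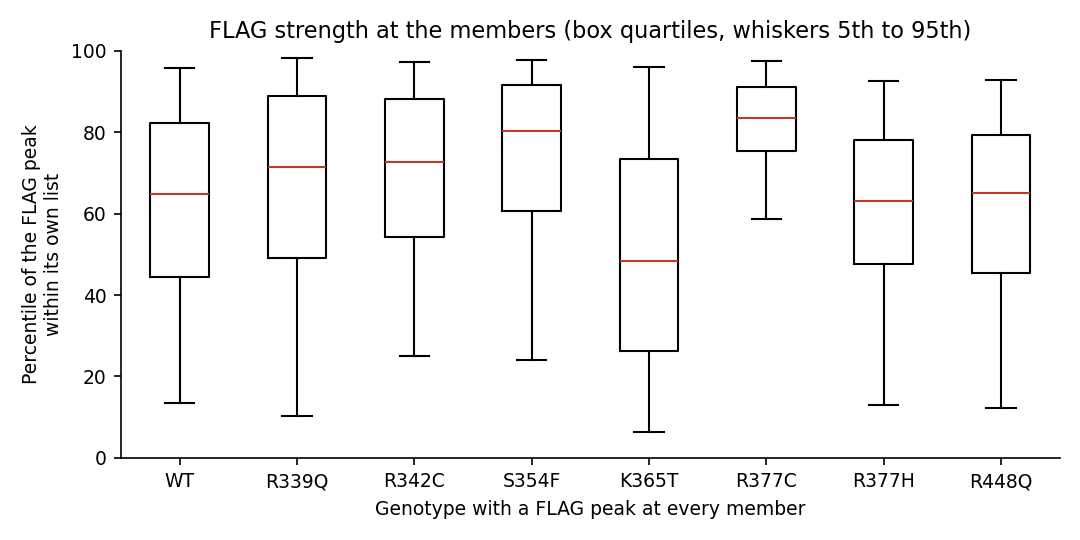
Percentile of the FLAG peak within its genotype's own list (vertical axis, 0 to 100) at the 512 members, for WT and the 7 mutants with a peak at every member; red lines are medians, boxes run between the quartiles and whiskers from the 5th to the 95th percentile of members. The K365T box is lowest, with a median of 48.3, and the R377C box is highest, with 83.6.

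Of the members, 230 (44.9%; 40.7 to 49.3) were below percentile 25 in at least 1 of the 7 lists where a peak was required. This was not counted at the comparison sites. List by list, the share below it ran from 0.195% (R377C) to 24.2% (K365T) of the members. At the H455R-only sites it ran from 0.0262% to 13.9% in the same 2 lists. The nearest Q418R FLAG peak lay at a median of 15.1 kb from the members, and 203 of them (39.6%) had one within 10 kb. It lay within 500 bp at 22 members and within 1 kb at 40, with a smallest gap of 29 bp. The nearest H455R peak was at a median of 213251 bp. Just outside the rule, the smallest overlap of an H455R-only site with its Q418R peak was 9 bp, and 118 of those 3822 sites (3.09%) had a Q418R peak below percentile 10. Peak numbers missing from the names show that some peaks had been taken out of the lists, and a missing Q418R number fell between the peaks that flank 8 members (1.56%), where 1.68% of all its numbers are missing. For H455R these were 32 members (6.25%) and 5.26%. The first share counts members and the second counts peak numbers, so neither is read against the other.

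SMC3 was not used to choose the members. A WT SMC3 peak was found at 457 members (89.3%; 86.3 to 91.7), close to the 87.8% of all 14023 sites with a CTCF antibody peak and the 89.5% of the 839 sites lost in K365T and H455R. The H455R-only sites had more, 96.0% (95.4 to 96.6). Q418R kept an SMC3 peak at 301 of the 457 (65.9%; 61.4 to 70.1) but at 94.7% (93.9 to 95.4) of the H455R-only sites. H455R kept it at 367 members (80.3%; 76.4 to 83.7) and at 94.0% (93.2 to 94.8) of the H455R-only sites. The other 7 mutants kept SMC3 at 84.5% (S354F) to 99.6% (R448Q) of the members.

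These values are read against all 12309 WT sites with both a CTCF antibody and an SMC3 peak. Over those, SMC3 was kept at 74.4% in Q418R and 77.9% in H455R. The interval of the members lay below that background in Q418R and included it in H455R. In the 7 other mutants, whose FLAG peaks were part of the rule, the members' share was higher than that of all such sites, by the least in R342C, R448Q and S354F. R339Q kept SMC3 at 89.1% of the members against 78.3% of all such sites, and S354F at 84.5% against 81.9%. K365T kept it at 96.1% against 90.1%, R377C at 91.2% against 87.5%, and R377H at 94.7% against 91.3%. R342C, at 98.0% against 96.8%, and R448Q, at 99.6% against 98.2%, were near the ceiling in both.

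Because the lists differ in length, each mutant was also compared with itself, as the share kept at the members minus the share kept at sites where all 9 mutants had FLAG. This need not take out length in full, since the members were weaker in WT. Their median WT SMC3 percentile was 91.3, against 95.5 at those sites. Values weighted by WT SMC3 strength and with lists of equal length are given below. The difference in share was -28.7 percentage points in Q418R and -18.5 in H455R. In the 7 other mutants it lay between -9.33 (S354F) and -0.303 (R448Q), with a mean of -4.68 ± 3.20 (SD over 7 mutants). The mutants whose SMC3 lists carry the tag b2 had the lowest of these 7 values: S354F, R339Q (-7.03) and R377C (-6.59). Whether the tag matters was not tested, and the permutation test below takes no account of it. The mean of Q418R and H455R was below that of the other 7, with a difference of -18.9 points, and no other mutant reached either of them. An exact two-sided permutation test over the 9 mutants gave p = 0.0278, the smallest that its 36 assignments can give. Without either Q418R or H455R the smallest attainable p was 0.125 and was the one found, with differences of -13.8 and -24.1.

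With the H455R-only sites as reference, which differ by rule from the members in Q418R alone, Q418R again had the lowest value, -28.9 points. H455R followed with -13.7, although it lacks FLAG at both sets of sites. S354F (-8.10) and R339Q (-7.48) came next, and R448Q (-0.247) was last. Q418R was below the mean of the other 8 mutants (-5.50 ± 4.27, SD) by a difference of -23.4 points. The exact permutation test gave p = 0.111, the smallest possible with 9 mutants, so this design cannot reach 0.05.

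**Figure D2:**
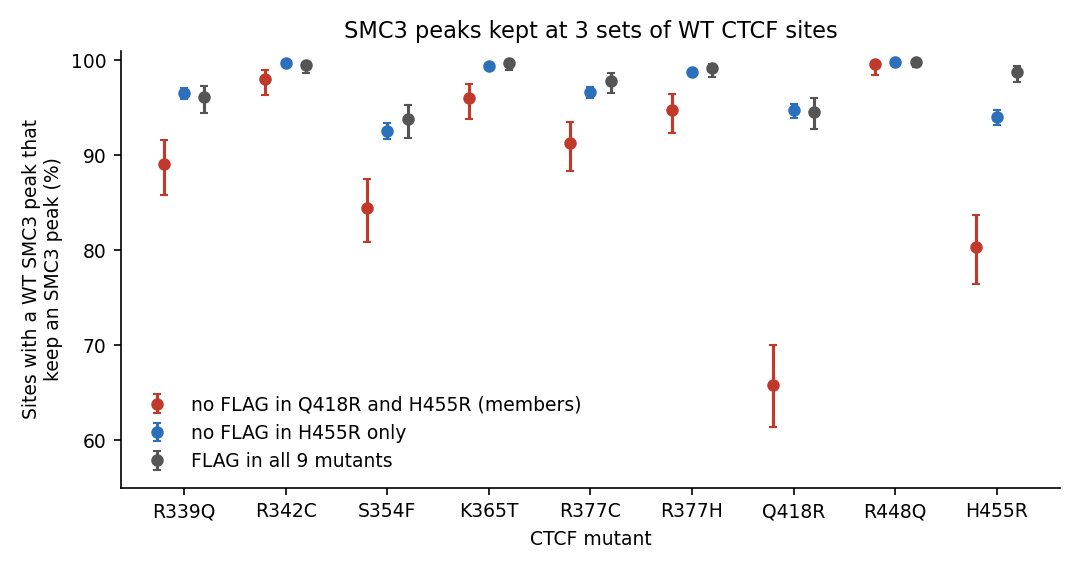
Share of sites with a WT SMC3 peak that also have one in the mutant (vertical axis, %, starting at 55) for each of the 9 mutants, at members (red), H455R-only sites (blue) and sites with FLAG in all 9 mutants (grey); bars are 95% Wilson intervals, counting error only. The members are lowest in Q418R, at 65.9%, and next lowest in H455R, at 80.3%.

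Sites lost in a different mutant together with H455R were examined in the same way, relative to the H455R-only sites. At the 977 sites lost in R339Q and H455R, the difference in SMC3 share was -20.4 points in R339Q and -5.16 in Q418R. There S354F, which kept FLAG, had -10.9 points, lower than H455R, which lacked FLAG, with -5.92. At the 839 sites lost in K365T and H455R it was -8.06 points in K365T, -7.50 in Q418R and -16.8 in H455R. At the members, the mutant that had lost FLAG, Q418R, stood at -28.9. In the set of R339Q the mutant named had the lowest value of the 9, and in that of K365T it was second to H455R. No test was made of these differences between sets.

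Site by site, 246 members with WT SMC3 (53.8%; 49.2 to 58.3) held an SMC3 peak in all 9 mutants, and 84.8% of the H455R-only sites did so. The most frequent single gap was Q418R. At 59 members (12.9%; 10.1 to 16.3) it was the one mutant without SMC3, against 2.04% (1.63 to 2.55) of the H455R-only sites. H455R was the one gap at 18 members, S354F at 15, R339Q at 3 and R377H at 1, and R342C, K365T, R377C and R448Q at 0. Q418R and H455R together, the same pair that lacked FLAG, were the gaps at 17 members (3.72%; 2.34 to 5.88), against 0.436% (0.268 to 0.707) of the H455R-only sites. In all, 117 members lacked SMC3 in at least 1 of the other 7 mutants, in which FLAG was present. These include the members where S354F, R339Q or R377H was the one gap. No member with WT SMC3 lacked it in every mutant.

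Where Q418R did hold SMC3 at a member, the peak stood lower in its list. Its median percentile was 79.7 over 301 members, against 91.8 over the H455R-only sites with a peak. In H455R the medians were 91.0 and 96.8, and in WT 91.3 and 94.98. At the 55 members without a WT SMC3 peak, Q418R had one at 5, H455R at 6 and S354F at 11, whereas R342C had one at 37 and R448Q, which has the longest SMC3 list, at 50.

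Whether a member held SMC3 in Q418R went with the strength of SMC3 in WT. From the weakest to the strongest quartile class of the members by WT SMC3, the share kept was 29.2%, 57.1%, 82.1% and 93.9%. The H455R-only sites within the same limits gave 75.3%, 89.6%, 98.3% and 99.9%, above the members in each. By WT FLAG strength the members gave a flatter series of 57.4%, 63.7%, 66.4% and 74.0%, and neighbouring classes overlapped in their intervals. With the reference sites weighted to the members' WT SMC3 strength, the difference between Q418R with H455R and the other 7 was -17.7 points. Of the members with a Q418R FLAG peak within 10 kb, 70.3% (63.3 to 76.5) kept SMC3 in Q418R, and of those without, 62.9% (57.1 to 68.4), with overlapping intervals.

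**Figure D3:**
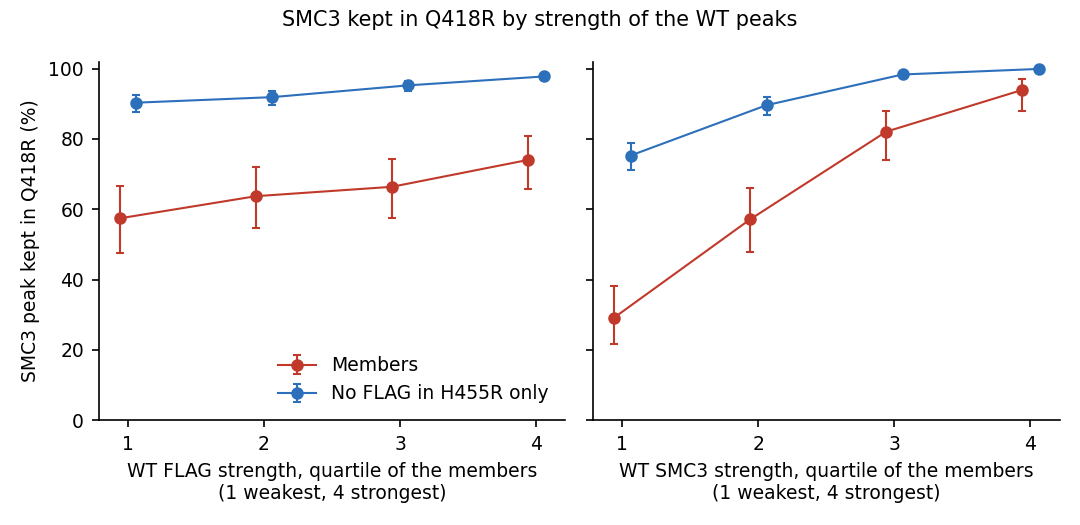
Share of sites that keep an SMC3 peak in Q418R (vertical axis, %) in 4 classes of WT FLAG (left) or WT SMC3 (right) strength, with limits at the quartiles of the members, for members (red) and H455R-only sites (blue); bars are 95% Wilson intervals. On the right the members run from 29.2% to 93.9% and the blue points lie above them in every class.

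The 10 members with the strongest WT FLAG peaks stood at WT FLAG percentiles of 97.9 to 99.3, and 8 of them kept SMC3 in Q418R. The first lay 0.427 kb outside Top1mt, a gene of a mitochondrial topoisomerase (chr15:75679227-75679784). Its FLAG peaks were at percentiles 98.7 in R339Q, 99.6 in R342C, 98.9 in S354F, 99.5 in K365T, 98.1 in R377C, 81.7 in R377H and 80.8 in R448Q. Its SMC3 peak was at percentile 98.1 in WT, 67.3 in Q418R and 89.6 in H455R. A member within Pknox2, which encodes a homeobox factor (chr9:36916224-36916963), was at FLAG percentile 98.3 in WT, from 77.7 in R448Q to 99.97 in R339Q, and its SMC3 percentile of 94.1 in WT compared with 78.8 in Q418R. Near Kcna5, a potassium channel gene 16.1 kb away (chr6:126551689-126552450), SMC3 stood at 94.2 in WT and 9.60 in Q418R, its lowest genotype, and at 76.9 or higher in the others. The site nearest to Zbp1, a sensor of nucleic acids (chr2:173219730-173219983), had SMC3 at 96.4 in WT and 94.6 in Q418R, the highest Q418R percentile of these 10 sites. The other strong sites with SMC3 in Q418R lay within Ncf4 and St7, 4.18 kb from Cyp4x1 and 83.6 kb from Gm14444. The remaining 2, for which the nearest protein-coding genes were Iqub at 93.5 kb and Cep78 at 43.5 kb, had none. The Iqub site lacked it in Q418R only, and the Cep78 site in Q418R and S354F.

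The 8 members with the strongest WT SMC3 that lacked SMC3 in Q418R and held it in at least 7 of the other 8 mutants all held it in all 8. They lay within Osbpl3, Fam136a, Tspan11, Gsap, Tenm4 and Kalrn, 1.42 kb from Dpysl5 and 93.5 kb from Iqub. Their WT SMC3 percentiles ran from 95.3 to 98.4. Of the 8, 4 were on chromosome 6 (Osbpl3, Fam136a, Tspan11 and Iqub), which held 50 of the 457 members with a WT SMC3 peak. Q418R kept SMC3 at 24 of those 50, and its SMC3 list was short of peaks on that chromosome. The site within Tspan11, a tetraspanin gene (chr6:127945807-127946071), was at SMC3 percentiles of 97.6 in WT, 98.9 in R339Q, 99.4 in R342C, 98.4 in S354F, 98.4 in K365T, 99.7 in R377C, 99.7 in R377H, 99.8 in R448Q and 98.0 in H455R. All 9 lists with a peak were thus near their top and Q418R had no peak, with its nearest FLAG peak 24.0 kb away. Tenm4, a teneurin of neuronal adhesion, contained a member (chr7:96519241-96519548) at SMC3 percentile 96.1 in WT and from 86.7 (R339Q) to 99.1 (K365T) in the 8 mutants. Another, within Kalrn (chr16:34114747-34115034), was at 95.5 in WT and lowest, at 77.5, in H455R. Osbpl3, a gene of the oxysterol-binding family, held the strongest of the 8 in WT (chr6:50305704-50305928; SMC3 percentile 98.4), but there R377C (18.6) and H455R (2.28) were low as well, and a Q418R FLAG peak lay only 82 bp away.

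The 5 members with the strongest WT SMC3 among those with SMC3 in all 9 mutants lay within Ccdc33 and Kif26a, 1.54 kb from Abcg1, 12.3 kb from Lyrm9 and 29.7 kb from Hspb3. Their WT SMC3 percentiles were 99.4 to 99.8, and those in Q418R were 92.0 to 97.5 although no Q418R FLAG peak overlapped them. Beside Abcg1, a cholesterol exporter gene (chr17:31119524-31119850), SMC3 was at 99.8 in WT and 96.8 in Q418R. That site had a FLAG percentile of 73.3 in WT and only 0.354 in R339Q, where it came close to failing the rule. Kif26a, of the kinesin family, contained a member (chr12:112145112-112145627) with SMC3 at 99.4 in WT and 97.5 in Q418R. Q418R FLAG peaks lay 1.496 kb from the Kif26a site and 2.17 kb from the Abcg1 site.

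Members and H455R-only sites were near gene ends at shares with overlapping intervals. Within 1 kb of an end of an annotated gene were 73 members (14.3%; 11.5 to 17.6), against 14.5% (13.5 to 15.7) of the H455R-only sites and 25.5% (22.5 to 28.7) of the sites kept by all 9 mutants. Another 48.8% lay inside a gene and 36.9% between genes; exons and introns were not told apart. A start site lay within 1 kb of 42 of the 498 members on the chromosomes with a start-site table (8.43%; 6.30 to 11.2), and the median distance was 20.2 kb. The next WT FLAG peak was farther from members than from H455R-only sites, at medians of 23698 and 16046 bp. The sites lost in R339Q and H455R, at 22533 bp, and in K365T and H455R, at 18955 bp, lay between them.

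Members near 8 lists of well-studied genes were counted. None lay within 10 kb of the 20 core pluripotency genes, the 57 clustered protocadherin genes, the 39 Hox genes, the 16 genes of cohesin and CTCF, the 15 neural or the 9 trophoblast genes examined. Added over the 8 lists, with a peak near 2 lists counted for both, 2 of 99 nearby WT FLAG peaks were members (2.02%; 0.556 to 7.07). That interval includes the 3.33% of all WT FLAG peaks that were members, so nothing particular to these lists can be read. Of 27 imprinted genes found, Sgce, a paternally expressed sarcoglycan gene, contained a member (chr6:4747103-4747200). Its FLAG percentile was 27.9 in WT and from 63.8 (K365T) to 96.0 (R377C) in the 7 mutants, and it had no SMC3 peak in WT, S354F, R377H, Q418R or H455R. Of 15 mesoderm and endoderm genes, Mesp1, a transcription factor of early mesoderm, had a member 5.51 kb away (chr7:79799103-79799441). SMC3 there was at percentile 94.9 in WT, 38.6 in Q418R and 84.3 in H455R, and between 86.8 and 96.0 in the other 7 mutants.

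Chromosome 6 carried more of the members than any other chromosome. It held 54 of them, but chromosome 11 came close with 51. Of all WT FLAG peaks, 5.05% were members on chromosome 6 and 4.66% on chromosome 11, the next highest. The gap was wider over members and H455R-only sites together, a base that leaves out the other WT sites. Of these, 21.8% (17.1 to 27.3) were members on chromosome 6, against 6.77% to 17.4% on the other chromosomes and 11.8% on all. Of all WT FLAG sites, Q418R kept 39.7% on chromosome 6 against 48.0% to 68.6% elsewhere. In bins of 10 Mb along chromosome 6, the share kept was between 13.9% and 51.0%, and 13 of the 15 bins were below the lowest whole chromosome among the others. A bin holds fewer sites than a chromosome, and bins of other chromosomes were not counted. The lowest bin in Q418R, from 10 to 20 Mb, was also the lowest in R448Q, at 38.9%. These shares come from FLAG lists that chose the members, so they are not a separate result. SMC3 was kept in Q418R at 24 of the 50 members with WT SMC3 on chromosome 6 (48.0%; 34.8 to 61.5) and at 68.1% (63.4 to 72.4) of those on other chromosomes. At the H455R-only sites the shares were 88.9% (83.6 to 92.6) and 95.03% (94.3 to 95.7). Without chromosome 6 there were 458 members, and the differences between mutants were -18.5 points (Q418R and H455R against 7, exact permutation p = 0.0278) and -21.0 (Q418R against 8, exact permutation p = 0.111). As each genotype is 1 line with pooled libraries, a trait of the line and an effect of the mutation cannot be told apart.

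**Figure D4:**
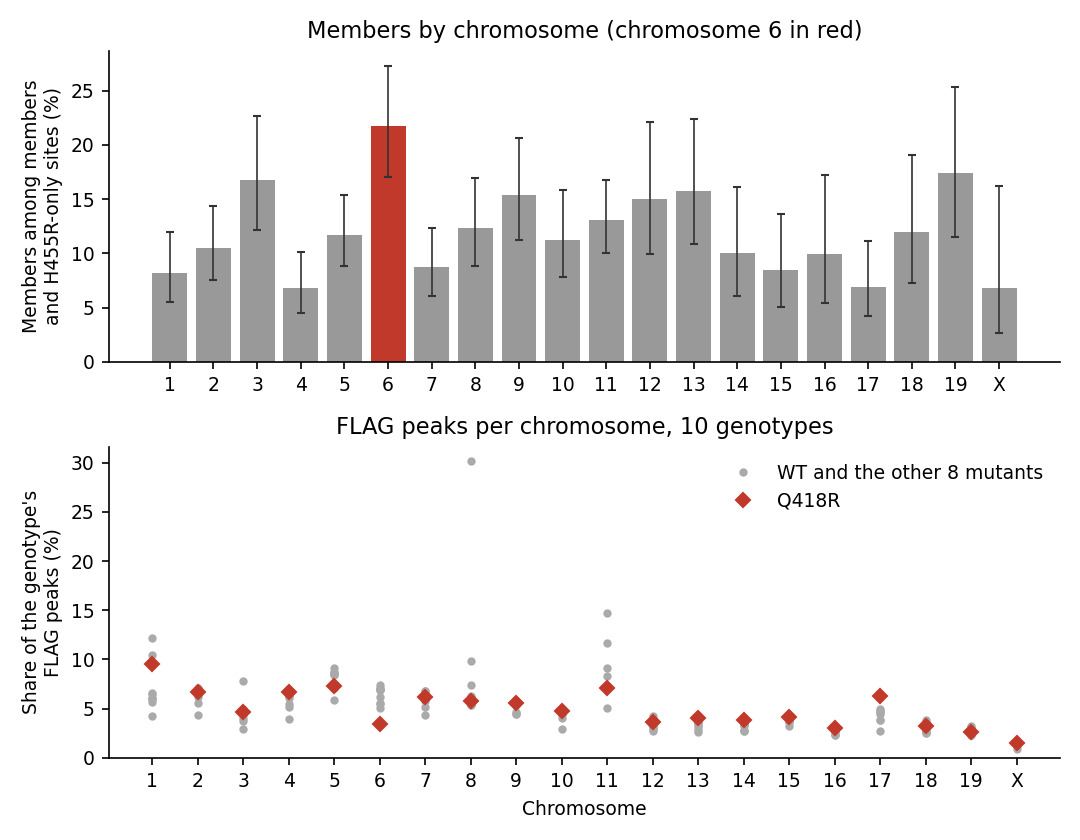
Top, members as a share of members and H455R-only sites (%, from 0) per chromosome with 95% Wilson intervals; bottom, share of each genotype's FLAG peaks (%) that lie on each chromosome, Q418R as red diamonds and the other 9 genotypes as grey points. Chromosome 6 has the highest share of members, 21.8%, and the Q418R diamond there, 3.45%, lies below the grey points; the single high grey point on chromosome 8 is H455R, 30.2%.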

How the data were processed

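ChIPmentation peak lists for 22 of the 24 groups were used (48 samples by the labels); not analysed here were untreated WT with FLAG and IgG. The submitters' processing notes name mm10 as the build and, as tools, deepTools, MACS2, Bowtie2 and Trim Galore, without versions; settings were not stated there. Each list pools 2 replicates and has 5 columns; the fifth is a score deposited by the authors, of a kind not stated, so it was used only as a percentile within its list. Identical intervals were merged with the highest score. Overlaps of 1 bp or more counted as shared (Python 3.11.15, numpy 2.4.6, pandas 2.3.3, statsmodels 0.14.6; checked against bedtools 2.31.1 and on simulated data; figures by matplotlib 3.10.9).

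The members, comparison sites and gene lists were chosen with earlier results of these data known. Named sites are the 10 strongest members by WT FLAG, the 8 strongest by WT SMC3 without SMC3 in Q418R and with it in at least 7 of the other 8 mutants, the 5 strongest by WT SMC3 with it in all 9, and per gene list the member nearest to a listed gene within 10 kb; the name is that of the protein-coding gene closest to the site. Start-site members with sequence were chosen by the place of the match. RefSeq on GRCm38.p6 gave 34610 gene spans, without strand, and 32851 start-site windows, with none on chromosome 18. Tests were exact two-sided permutations over mutants, not adjusted for one another. Alternatives covered overlap, list length, peak strength, leave-one-out over mutants, windows and, chosen after seeing the data, chromosomes.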

Additional observations from a re-analysis of the deposited data

How the results depend on the processing

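No paired analysis was possible because each list pools its replicates; for the same reason no replicate could be left out. The number of members depended on the overlap. It was 0 with a reciprocal overlap of 50% in all lists, where the CTCF antibody peaks at the members, with a median of 2789.5 bp in treated cells, are much wider than the FLAG peaks, and 110 when this was asked of FLAG peaks only, a choice made after seeing the data. It was 255 with the upper 50% of each FLAG list and 295 with 13151 top peaks in each of the 7 other lists. For the members of the 1 bp rule, the SMC3 share in Q418R was 54.8% with the upper 50% of each SMC3 list. It was 35.5% when a reciprocal overlap was asked of the SMC3 peaks in WT and Q418R, which also changed the sites counted. The Q418R SMC3 peaks had a median width of 167 bp, the smallest of the SMC3 lists, against 313 bp for the members. That share is therefore not read as a larger loss. The share with an untreated CTCF antibody peak fell to 1.56% with a reciprocal overlap. Within 5 kb of a gene end lay 41.0% of the members, and AGNNGGC in place of AGGNGGC was held by 83.3% of the start-site members, both wider by construction.

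The difference between Q418R with H455R and the 7 other mutants lay between -24.1 and -13.8 points when 1 mutant was left out, and missed 0.05 without Q418R (-13.8) or without H455R (-24.1; both p = 0.125 by exact permutation). That between Q418R and the 8 others lay between -24.5 and -22.6. With 42030 top peaks in every SMC3 list these differences were -20.0 and -20.2. All alternatives run kept both differences below 0. Replicate spread and depth, which pooled lists do not show, limit every value.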
